A study of Mus musculus with 13 samples.

Results

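The 4323 regions described here are stretches of mouse chromosome 6 with their start between 50 and 100 Mb (build mm10) that the authors listed as H3K27me3 regions shared by DKO and WT embryonic stem cells (ESCs). They were chosen by position and by presence on the authors' shared list, and they make up 15.3% of the 28174 shared regions, out of 57909 regions in all. The first starts at 50006590 and the last at 99995695, while the nearest shared regions outside start at 49997338 and 100002645. The Rosa26 locus, on the same chromosome, lies 13.1 Mb beyond the last of these regions and 63.1 Mb from the first. The cells are ESCs labelled CAST/B6 Male Rosa26-RMCE, a male line from a cross of those strains with an exchange cassette for transgenes at Rosa26. The DKO cells lack SAFB and SAFB2, a pair of nuclear proteins that bind RNA, and WT cells carry both. All libraries, DKO and WT alike, came from cells given doxycycline for 3 days, with no word in the labels on what it induced, and fixed in 0.6% formaldehyde. There were 4 DKO and 5 WT H3K27me3 ChIP-seq libraries, and 2 DKO and 2 WT libraries of total H3. The labels name clone 4 for DKO replicate 1 of H3K27me3 and clone 13 for the rest of the DKO libraries, H3 included, so 3 of 4 DKO H3K27me3 libraries are 1 clone, and an effect of the clone cannot be told apart from that of the genotype. In the column names WT replicates 1, 4 and 5 share the stem rmce while WT replicates 2 and 3 each have a stem of their own, with no word on whether they mark different clones. As the labels name no separate cultures for the replicates, the p-values rest on a spread that may be technical.

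H3K27me3 is the histone mark that Polycomb repressive complex 2 (PRC2) places on nucleosomes of silent genes. In ESCs it covers CpG-rich promoters of genes that act later in development, and the homeobox clusters carry some of its broadest domains. Total H3 reports on nucleosomes whether or not they carry the mark. The HoxA cluster, whose homeobox transcription factors set position along the body axis and in the limbs, lies within this stretch of chromosome 6. So do genes of brain, eye, blood and inner ear development such as Emx1, Vax2, Gata2 and Atoh1.

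The promoters beneath the regions are shown first, because the long regions cover mostly CpG-rich ones. Each sequence is 300 bp of RefSeq GRCm38.p6 around a gene's start (250 bases before it and 50 after), 5′ to 3′ on the gene's strand, with every CG dinucleotide in capitals. Hoxa5 (chr6:52204538-52204837, minus strand) and Atoh1 (chr6:64728875-64729174), Gata2 (chr6:88193641-88193940) and Emx1 (chr6:85187681-85187980), all on the plus strand, lie under regions of 10 kb or more. Lrrtm1 (chr6:77242227-77242526, plus strand) lies under a region of 7020 bp. Cbx3 (chr6:51470366-51470665, plus strand), which encodes a heterochromatin protein that every cell uses, lies in the same stretch of chromosome under no region.
Hoxa5: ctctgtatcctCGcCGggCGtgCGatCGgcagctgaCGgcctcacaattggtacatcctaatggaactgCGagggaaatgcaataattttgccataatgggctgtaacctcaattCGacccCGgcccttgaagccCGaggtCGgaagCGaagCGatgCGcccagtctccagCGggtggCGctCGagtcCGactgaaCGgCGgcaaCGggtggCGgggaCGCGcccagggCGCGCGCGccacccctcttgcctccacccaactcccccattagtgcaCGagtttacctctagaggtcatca
Atoh1: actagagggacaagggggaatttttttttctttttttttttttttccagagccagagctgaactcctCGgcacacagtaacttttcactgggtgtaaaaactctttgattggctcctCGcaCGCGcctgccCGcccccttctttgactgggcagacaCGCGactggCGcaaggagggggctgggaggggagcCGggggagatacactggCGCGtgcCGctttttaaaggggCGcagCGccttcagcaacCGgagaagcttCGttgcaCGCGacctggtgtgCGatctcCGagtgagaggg
Gata2: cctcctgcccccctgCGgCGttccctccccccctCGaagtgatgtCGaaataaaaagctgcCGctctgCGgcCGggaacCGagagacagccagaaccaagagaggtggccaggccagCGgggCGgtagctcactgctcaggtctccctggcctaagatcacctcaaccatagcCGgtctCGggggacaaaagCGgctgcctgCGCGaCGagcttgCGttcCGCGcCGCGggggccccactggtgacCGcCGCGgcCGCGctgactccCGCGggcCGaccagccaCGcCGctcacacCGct
Emx1: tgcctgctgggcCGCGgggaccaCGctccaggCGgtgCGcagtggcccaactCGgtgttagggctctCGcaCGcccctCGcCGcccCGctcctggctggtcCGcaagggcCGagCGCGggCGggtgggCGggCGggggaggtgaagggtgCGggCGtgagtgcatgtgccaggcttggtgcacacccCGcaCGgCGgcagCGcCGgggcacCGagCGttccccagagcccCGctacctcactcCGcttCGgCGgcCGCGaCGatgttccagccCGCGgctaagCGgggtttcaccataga
Lrrtm1: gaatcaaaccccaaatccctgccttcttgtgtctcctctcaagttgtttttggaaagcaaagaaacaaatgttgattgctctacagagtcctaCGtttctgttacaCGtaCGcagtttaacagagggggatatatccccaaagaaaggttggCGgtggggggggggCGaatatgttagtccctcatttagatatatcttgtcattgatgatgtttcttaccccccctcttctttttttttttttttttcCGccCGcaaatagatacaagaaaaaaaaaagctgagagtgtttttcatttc
Cbx3: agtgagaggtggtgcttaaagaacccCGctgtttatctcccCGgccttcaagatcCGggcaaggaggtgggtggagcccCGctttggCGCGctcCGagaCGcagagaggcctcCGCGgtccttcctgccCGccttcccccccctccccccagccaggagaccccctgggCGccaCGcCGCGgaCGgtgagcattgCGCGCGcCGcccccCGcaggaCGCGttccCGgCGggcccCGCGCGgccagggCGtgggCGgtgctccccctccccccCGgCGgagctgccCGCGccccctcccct
These promoters hold 29 CG dinucleotides at Hoxa5, 20 at Atoh1, 32 at Gata2, 37 at Emx1, 7 at Lrrtm1 and 34 at Cbx3. Of 625 RefSeq promoters in the stretch, the 48 under regions of 10 kb or more held a median of 18.5 CG dinucleotides and 61.7% G and C. The 175 under shorter regions held a median of 8.0 and the 376 under no region 6.0, while all 32851 RefSeq promoters held 7.0. At least 10 CG dinucleotides were present in 70.8% of the promoters under long regions and in 41.8% of those under none, so CpG-rich promoters such as that of Cbx3 were common outside the regions too.

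The regions were dense, short and mostly weak. They numbered 86.5 per Mb, against 7.43 per Mb over the other autosomes together and 11.7 per Mb on chromosome 11, the densest of those. Chromosome 6 itself held 34.8 shared regions per Mb below 50 Mb and 93.5 per Mb above 100 Mb. The regions covered 6744 kb, 13.5% of the 50 Mb. Their lengths ran from 275 to 133062 bp with a median of 1068 bp, and 1980 were under 1 kb, 2216 from 1 to 5 kb, 97 from 5 to 10 kb and 30 of 10 kb or more. Within the stretch, 5 Mb intervals held 32.0 per Mb (65 to 70 Mb) up to 161.4 per Mb (90 to 95 Mb). Promoters (rows of the authors' promoter table, from 2000 bp before a start to 1000 bp after) touched 491 of the 4323 regions, at 430 gene symbols of which 198 are protein coding. Of the 1590 promoter rows in the stretch, 625 touched a region. A further 2150 regions lay within RefSeq genes away from promoters and 1682 touched no gene.

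Depth was 1818647 to 3134799 region counts per H3K27me3 library and 525847 to 736566 per H3 library. Levels below are CPM, region counts scaled to a common library size by TMM, and per kb of length where regions are compared. WT replicate 1 stood apart. The 4323 regions took 6.22 to 7.02% of the counts in the 4 DKO libraries, and 5.95% in WT replicate 1 against 7.11 to 7.58% in the other WT libraries, so results are also given without it. Its CPM was below the mean of the other WT libraries in 3589 of the 4323 regions, by a median of 0.35 on the log2 scale, but by a median of 0.07 in the 30 regions of 10 kb or more. ChIP-seq gives no expression, so the ESC label was checked by the mark at promoters of genes active in ESCs. Of 8 such genes, 6 were at 6.87 CPM or less in DKO and 7.004 CPM or less in WT, among them Pou5f1 and Sox2 with 1 promoter row each. Nanog and Zfp42 have 3 rows each and Dppa4 has 2, and reads in overlapping rows were not counted. Their values of 0.0 to 0.29 CPM therefore cannot be read as a low mark. Esrrb and Tfcp2l1 stood higher, at 35.1 and 34.8 CPM in DKO, and 32.9 and 30.6 CPM in WT. The genotype labels could not be checked, as the Safb and Safb2 promoter rows held at most 4 counts over the 9 libraries.

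Long regions carried the highest levels of the mark per kb. The 30 regions of 10 kb or more were 0.694% of the regions and 8.30% of their length, yet held 20.5% of their H3K27me3 counts and 8.21% of their H3 counts. Their median H3K27me3 level was 19.3 CPM per kb. The 97 regions of 5 to 10 kb had a median of 10.3 CPM per kb, the 2216 of 1 to 5 kb 8.01 CPM per kb and the 1980 shorter ones 8.21 CPM per kb. Median H3 levels were near each other in these classes, from 11.7 to 12.2 CPM per kb. Promoters touched 24 of the 30 long regions and 126 of the 1980 shortest.

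Against total H3, H3K27me3 was higher in 108 of 4310 regions in DKO and in 130 in WT (edgeR quasi-likelihood test, adjusted p under 0.05 over all regions tested). These shares, 2.51% in DKO and 3.02% in WT, were below the background over all regions tested, 7.52% in DKO and 7.87% in WT. Another 2 regions were called lower than H3 in DKO and 4 in WT, against a background of 0.389% in DKO and 1.07% in WT. Calls were most frequent in long regions. Of the 30 long regions 28 were called in DKO and 29 in WT, with median log2 ratios of 1.23 in DKO and 1.30 in WT. Of the 97 regions of 5 to 10 kb, 37 were called in DKO and 39 in WT. Under 1 kb 0 of 1967 regions were called in DKO, and 8 in WT. These ratios depend on how the libraries are scaled. TMM centres them near the middle of all regions, so a ratio near 0 marks a typical region and not an absence of enrichment over H3. With library totals in place of TMM, 44 regions were higher and 359 lower in DKO, and 53 higher and 467 lower in WT.

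**Figure D1:**
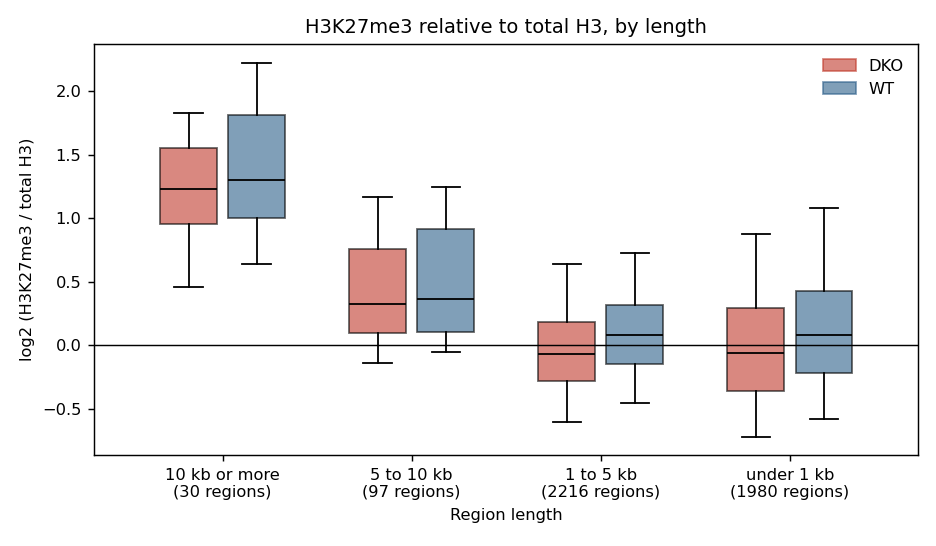
Log2 ratio of H3K27me3 to total H3 (vertical axis, edgeR estimate with TMM scaling) by region length, for DKO (red, left in each pair) and WT (blue). Boxes span the quartiles with the median as a line, and whiskers the 5th to 95th percentile of regions. Medians of the 30 regions of 10 kb or more were 1.23 in DKO and 1.30 in WT. Those of regions under 5 kb lay near 0, which TMM sets near the middle of all regions and which is not an absence of enrichment.

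The main comparison asked whether H3K27me3 in these regions differs between DKO and WT cells. It was lower in DKO in 14 of the 30 longest regions, led by HoxA, Cyp26b1, Emx1, Vax2os and Gata2, by 0.28 to 0.41 on the log2 scale at these. Of 4159 regions tested, 30 were lower and 1 higher in DKO (edgeR quasi-likelihood F test, adjusted p under 0.05 over 40418 regions; the other 164 had too few counts). This is 0.721% lower against a background of 1.87% over all regions, and 0.0240% higher against 2.14%. The long regions held many of these: 14 of the 30 of 10 kb or more fell (46.7%), next to 16 of 4129 shorter ones (0.388%). On the autosomes other than chromosome 6, 41.7% of shared regions of 10 kb or more fell, and 1.21% of shorter ones. Long regions hold more counts and so have smaller errors, and what part that plays in the contrast was not tested. The median log2 fold change was -0.14 over the 4159 regions, with 3108 below 0, and -0.02 over all regions tested. Without WT replicate 1, 140 of 4164 regions fell (3.36%) and 1 rose (0.0240%), against a background of 3.65% lower and 3.54% higher. All 30 falls were kept, and the median was -0.21. Every DKO library lay below every WT library in 100 regions, 2.40% against a background of 3.4%, and below WT replicates 2 to 5 in 375, 9.02% against 6.7%. Every DKO library lay above every WT library in 7, which is 0.168% against a background of 3.35%. WT replicate 1 was set aside for its low share of counts in these same regions. That choice favours falls here, so the results without it are no separate support.

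The count of falls moved when 1 library was left out. It ran from 9 to 19 in long regions and from 0 to 121 in shorter ones. Leaving out 1 library at a time left 24 falls when DKO replicate 1 was dropped, 11 for DKO replicate 2, 12 for DKO replicate 3 and 30 for DKO replicate 4. It left 16 falls when WT replicate 2 was dropped, 22 for WT replicate 3, 15 for WT replicate 4 and 12 for WT replicate 5. Long regions that fell numbered 9 with DKO replicate 2 or DKO replicate 3 dropped, 10 with WT replicate 2 dropped, 19 with WT replicate 1 dropped, and 11 to 14 in the other fits. Shorter ones numbered 0 with WT replicate 5 dropped, 2 or 3 with DKO replicate 2, DKO replicate 3 or WT replicate 4 dropped, 6 with WT replicate 2 dropped, 10 with DKO replicate 1 dropped, 11 with WT replicate 3 dropped, 17 with DKO replicate 4 dropped, and 121 with WT replicate 1 dropped. Long regions thus made up 46.7% of the falls with all libraries and 13.6% without WT replicate 1. The labels of DKO replicates 3 and 4 and WT replicates 4 and 5 carry Old or New, words with no meaning given. Those of DKO replicates 1 and 2 and WT replicates 1 to 3 carry neither. Within the libraries with neither word 3 fell, and within those with either word 11 fell, with median log2 fold changes of -0.099 and -0.20. These sets hold fewer libraries, so a call lost within them does not show a smaller difference. DESeq2 called 18 lower and 0 higher. Scaling on library totals gave 15 lower and 3 higher. When TMM was taken from chromosome 6 shared regions alone, an alternative chosen after seeing the data, 0 fell and 3 rose, at Chst13, Mgll and Mrpl53. The median over all regions moved to 0.13 and that of the 4159 regions to 0.0047, so each fall given here is relative to the regions of the whole genome.

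The longest region was HoxA (chr6:52146181-52279242), 133062 bp that cover the promoters of all 11 Hoxa genes and hold 7.58% of the counts in the 4323 regions. Its H3K27me3 was 4759, 4261, 4304 and 4700 CPM in DKO replicates 1 to 4, and 5781, 6039, 5847, 5740 and 5733 CPM in WT replicates 1 to 5. All DKO libraries lay below all WT libraries, WT replicate 1 included. The means were 4506 ± 260 CPM in DKO (SD, n = 4) and 5828 ± 126 CPM in WT (SD, n = 5), or 33.9 and 43.8 CPM per kb. On the log2 scale DKO over WT was -0.37 (SE 0.039, adjusted p of 2.90e-15 by edgeR), and -0.39 to -0.34 with any 1 library left out, always past the threshold. It was -0.39 within the libraries with neither Old nor New and -0.34 within those with either, past the threshold in both. With TMM from chromosome 6 shared regions it was -0.24 and no longer passed (adjusted p = 0.237 by edgeR). Total H3 there was 1539 and 1556 CPM in DKO, and 1602 and 1628 CPM in WT, a log2 fold change of -0.06 that did not pass. The difference of the differences, H3K27me3 against H3, was -0.33 with an unadjusted p of 0.000215 and an adjusted p of 0.327 by edgeR.

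The promoter table, made from the same reads, resolves parts of HoxA, although reads in overlapping rows were not counted and some rows of the cluster, those of Hoxa11 and Hoxa13 among them, held 0 counts. Of its 625 rows on the 4323 regions, 378 were tested, and 4 were lower and 0 higher (edgeR), against a background of 0.19% lower and 0.438% higher over all rows. The lower rows were Mir196b, 5730596B20Rik and Gm27543, all in HoxA, and Wipf3. The median log2 fold change was -0.09 over the 378 rows and -0.01 over all rows. The count of lower rows was 0 when DKO replicate 2, DKO replicate 3 or WT replicate 5 was dropped, 1 for WT replicate 3, 2 for DKO replicate 4 or WT replicate 2, and 8 for WT replicate 4. The row of Mir196b, a microRNA encoded between Hoxa9 and Hoxa10 that represses Hox transcripts, held 375, 286, 292 and 285 CPM in DKO, and 372, 475, 425, 369 and 426 CPM in WT. DKO replicate 1 lay among the WT libraries and the other DKO libraries below them all. The row fell by 0.41 on the log2 scale (SE 0.10, adjusted p of 0.0169 by edgeR). The mature microRNA (chr6:52230129-52230150, minus strand) is shown from RefSeq with its seed, bases 2 to 8, in capitals.
mmu-miR-196b-5p: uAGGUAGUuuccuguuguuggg
The rows of Hoxa10 (348.9 ± 31.4 CPM in DKO, n = 4, and 447.1 ± 34.7 CPM in WT, n = 5, SD), Hoxa5 and Hoxa4 stood at -0.36, -0.33 and -0.33 on the log2 scale and did not pass by edgeR, with adjusted p of 0.0506, 0.0960 and 0.118.

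Next to HoxA, the region of Evx1 (chr6:52304330-52327093), a homeobox gene of the posterior embryo, held 673, 615, 597 and 680 CPM in DKO, and 763, 742, 776, 733 and 764 CPM in WT. The groups did not overlap. It fell by 0.24 on the log2 scale (SE 0.057, edgeR adjusted p of 0.00423), a call that ended without DKO replicate 2 or without DKO replicate 3, at -0.21 to -0.20.

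**Figure D2:**
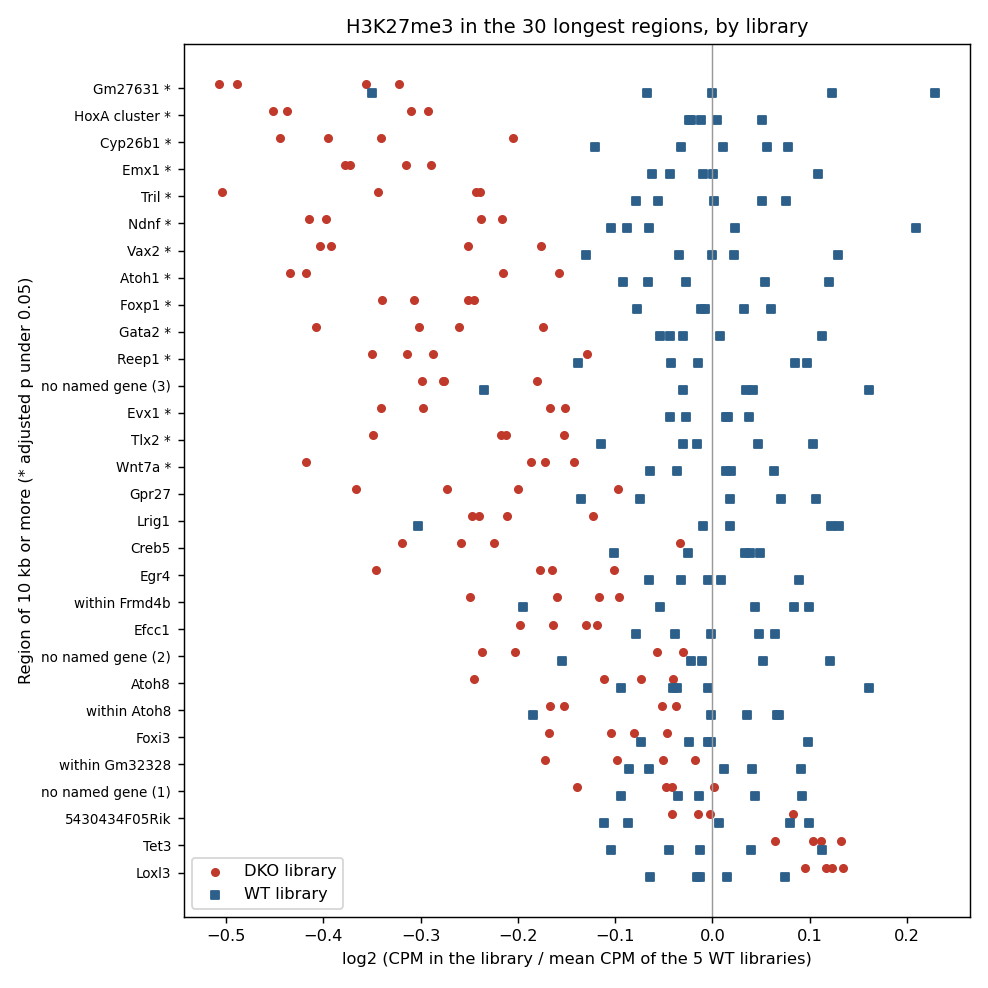
H3K27me3 in each of the 30 regions of 10 kb or more, one row each, as log2 of a library's CPM over the mean CPM of the 5 WT libraries (horizontal axis). Red circles are the 4 DKO libraries and blue squares, drawn under them, the 5 WT libraries; an asterisk marks an adjusted p under 0.05. In 14 of the 30 rows every DKO library lies left of every WT library (46.7%), next to 210 of 451 regions of that length (46.6%) on the autosomes other than chromosome 6.

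Among 21 other developmental transcription factors, 20 had a region at their promoter, and 6 of these fell and 0 rose, against the 1.87% of all regions tested that were lower. All 6 are regions of 10 kb or more, a length at which 41.7% fell on the autosomes other than chromosome 6. Their median log2 fold change was -0.15 and their median level 17.7 CPM per kb. Gata2 (chr6:88189953-88207556), needed for blood stem cells, held 621, 569, 528 and 585 CPM in DKO, and 758, 680, 675, 705 and 686 CPM in WT. Atoh1 (chr6:64726181-64737983), which specifies hair cells and cerebellar granule neurons, held 369, 320, 317 and 384 CPM in DKO, and 409, 465, 420, 445 and 402 CPM in WT. Emx1 (chr6:85183128-85196972), of the dorsal forebrain, held 326, 313, 314 and 332 CPM in DKO, and 403, 438, 406, 389 and 394 CPM in WT. DKO and WT libraries did not overlap at any of these genes, whose promoters are among those shown above. Gata2 stood at -0.28 (SE 0.058), Atoh1 at -0.30 (SE 0.065) and Emx1 at -0.34 (SE 0.065), with edgeR adjusted p of 0.000336, 0.00106 and 0.000131. None of these calls ended with 1 library left out. Within the libraries with neither Old nor New only Emx1 of these passed, at -0.38, while Gata2 stood at -0.25 and Atoh1 at -0.33. Within those with either word only Gata2 passed, at -0.31, while Emx1 stood at -0.27 and Atoh1 at -0.27.

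Vax2 (chr6:83702104-83718960), a homeobox gene of the ventral retina, held 407, 367, 369 and 429 CPM in DKO, and 473, 485, 530, 492 and 443 CPM in WT. The region beside it (chr6:83690828-83701764), within the antisense gene Vax2os, held 153, 136, 149 and 135 CPM in DKO, and 150, 208, 224, 191 and 183 CPM in WT. Vax2 did not overlap between groups, whereas at the neighbour WT replicate 1 lay among the DKO libraries. They fell by 0.30 and 0.41 on the log2 scale (SE 0.063 and 0.082, edgeR adjusted p of 0.000620 and 0.000231). Foxp1 (chr6:99512732-99527035), a forkhead repressor of brain and lung, fell by 0.29 to 276 ± 8.65 CPM in DKO (SD, n = 4), against 337 ± 12.1 CPM in WT (SD, n = 5), with an edgeR adjusted p of 0.00407. Tlx2 (chr6:83061884-83073231), a homeobox gene of the enteric nervous system, fell by 0.23 to 361 ± 20.5 CPM in DKO (SD, n = 4), against 424 ± 24.2 CPM in WT (SD, n = 5). Its call (edgeR adjusted p of 0.0202) ended without DKO replicate 2 or 3 or WT replicate 2 or 3, at -0.23 to -0.19. Egr4, an immediate early zinc finger gene, was near the threshold with every DKO library below every WT library, at -0.19 and an edgeR adjusted p of 0.0577. The remaining 13 regions of the list did not pass. A log2 fold change below 0 was found in 14 of all 20, next to 74.7% of the 4159 regions tested in the stretch.

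Of 21 signalling genes 18 had a region, and 2 fell and 0 rose, with a median log2 fold change of -0.17. Both falls are again regions of 10 kb or more, next to the same 1.87% of all regions and 41.7% of long ones off chromosome 6. Cyp26b1 (chr6:84574264-84596472), the enzyme that clears retinoic acid, held 577, 525, 489 and 506 CPM in DKO, and 650, 702, 670, 691 and 611 CPM in WT. Every DKO library lay below every WT library. It fell by 0.34 (SE 0.059, edgeR adjusted p of 7.47e-06), in each fit with 1 library left out too, at -0.29 within the libraries with neither Old nor New (not passing) and -0.38 within those with either. Wnt7a (chr6:91401739-91414898), a Wnt ligand of limb and synapse development, fell by 0.23 to 272 ± 22.9 CPM in DKO (SD, n = 4), against 318 ± 10.98 CPM in WT (SD, n = 5). Its call (edgeR adjusted p of 0.0367) was kept only without DKO replicate 1 or WT replicate 1 and ended without any other, at -0.25 to -0.16. Loxl3, a lysyl oxidase of the connective tissue, was at 282 ± 3.12 CPM in DKO (SD, n = 4) and 260 ± 9.21 CPM in WT (SD, n = 5), every DKO library above every WT library, yet did not pass at 0.12 (edgeR adjusted p of 0.348). Lrig1, a brake on growth factor receptors, and Crhr2, a receptor of corticotropin-releasing peptides, stood at -0.20 and -0.20 and did not pass.

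Of 21 neuronal genes 15 had a region, and 1 fell and 0 rose, with a median log2 fold change of -0.14, next to the same shares of 1.87% and 41.7%. The fall is a region of 12402 bp. Reep1 (chr6:71701753-71714154), which shapes the endoplasmic reticulum of axons, fell by 0.26 to 143 ± 9.97 CPM in DKO (SD, n = 4), against 173 ± 11.5 CPM in WT (SD, n = 5), with DKO replicate 4 within the WT range. Its call (edgeR adjusted p of 0.0408) was kept only without DKO replicate 4 or WT replicate 1 and ended without any other, at -0.27 to -0.23. The synaptic gene Lrrtm1, Ccser1 and the Rac regulator Chn2 stood at -0.14, -0.14 and -0.12, and none of these passed. Lrrtm1, with the fewest CG dinucleotides of the promoters shown, was at 20.6 CPM per kb in DKO and 22.6 CPM per kb in WT. Its log2 ratio to H3 was 2.06 in DKO and 1.76 in WT, next to 2.09 in DKO and 2.42 in WT at HoxA. The H3 beneath these ratios was lower at Lrrtm1, at 7.08 CPM per kb in DKO and 9.90 CPM per kb in WT. At HoxA it was 11.63 CPM per kb in DKO and 12.14 CPM per kb in WT. Outside these gene groups, the long regions of Tril, a Toll-like receptor partner, and Ndnf, a secreted neuronal factor, fell by 0.33 and 0.31 (edgeR adjusted p of 0.00114 and 0.00947). The call of Ndnf ended without DKO replicate 2 or 3 or WT replicate 2, at -0.28 to -0.26.

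Not every long region was called lower, although 27 of the 30 had a log2 fold change below 0 (90.0%). On the autosomes other than chromosome 6, 81.15% of regions of that length did. Tet3, which oxidises methylated cytosine, lies under a region of 23199 bp (chr6:83440974-83464172) with 426, 447, 440 and 438 CPM in DKO, and 379, 419, 441, 395 and 404 CPM in WT. Only WT replicate 3 was within the range of the DKO libraries. It stood at 0.10 and did not pass (edgeR adjusted p of 0.352). The neighbouring region of 25642 bp, at the promoter row of 5430434F05Rik, stood at 0.01. Foxi3, a forkhead gene of ectodermal organs, Atoh8, a relative of Atoh1, and Creb5, a leucine zipper factor, were below 0, at -0.10, -0.11 and -0.20, but did not pass.

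**Figure D3:**
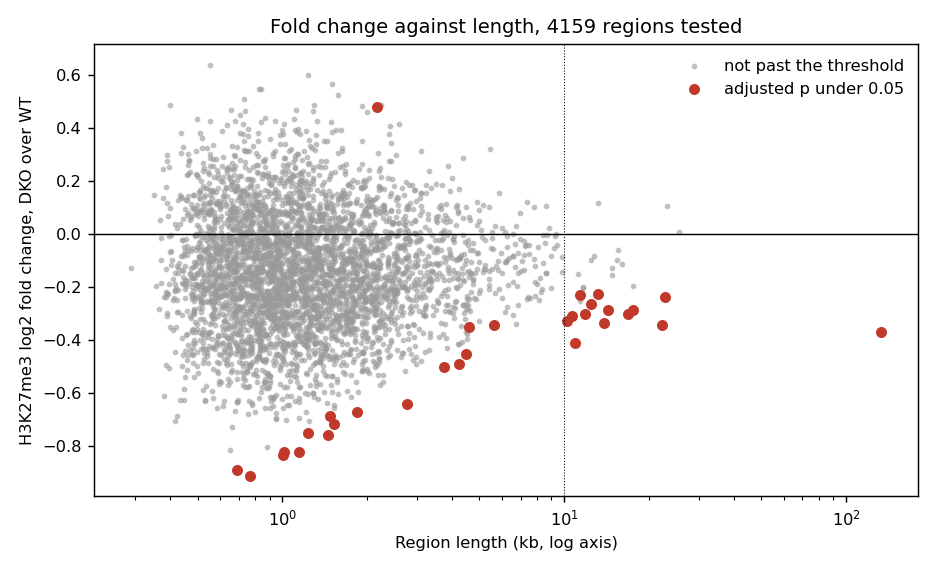
H3K27me3 log2 fold change, DKO over WT (vertical axis), against region length in kb (horizontal log axis) for the 4159 regions tested; red points have an adjusted p under 0.05 and the dotted line marks 10 kb. Of the 31 red points, 30 lie below 0 and 14 of these at 10 kb or more.

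The short regions that passed were fewer for their number, and their calls were less stable. Of the 16 falls under 10 kb, 4 were at promoter rows, 6 within genes and 6 at no gene. In 6 of these 16 every DKO library lay below every WT library, next to 3.4% of all regions tested. Picking regions that passed as lower favours such separation. All 16 calls, and that of the single rise, ended with at least 1 library left out, whereas 9 of the 14 calls at 10 kb or more did not. Nfe2l3 (chr6:51430935-51436568), a bZIP factor, held 78.9, 74.3, 72.6 and 69.1 CPM in DKO, and 95.4, 99.7, 79.5, 102 and 90.3 CPM in WT. Vopp1 (chr6:57824070-57828659), a vesicle protein, held 50.9, 60.7, 51.1 and 62.1 CPM in DKO, and 69.4, 75.02, 73.5, 69.7 and 70.7 CPM in WT. The genotypes did not overlap at either gene, with falls of 0.34 and 0.35 (edgeR adjusted p of 0.0269 and 0.0455). Krcc1 (chr6:71281227-71282228) held 5.29, 5.71, 7.29 and 8.09 CPM in DKO, and 5.47, 14.6, 9.003, 18.2 and 12.2 CPM in WT. WT replicate 1 lay among the DKO libraries there, and the fall of 0.83 had an SE of 0.24 (edgeR adjusted p of 0.0212). Gm44220 fell by 0.50, and 6 regions within Creb5, Itprid1 (2 regions), Prickle2, 9530026P05Rik and Foxp1 by 0.45 to 0.82. The 6 at no gene fell by 0.49 to 0.91. Of these 16 calls, 0 ended without WT replicate 1. The call of Nfe2l3 ended without DKO replicate 2, 3 or 4 or WT replicate 2, 4 or 5, at -0.35 to -0.31. That of Vopp1 ended without DKO replicate 1, 2 or 3 or WT replicate 2, 3, 4 or 5, at -0.38 to -0.30. That of Krcc1 ended without DKO replicate 1, 2 or 3 or WT replicate 2, 4 or 5, at -0.88 to -0.61.

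The rise lay within Chst13 (chr6:90308417-90310572), a chondroitin sulfotransferase gene. It held 35.0, 40.9, 42.2 and 35.1 CPM in DKO, and 33.2, 16.2, 32.5, 30.4 and 24.1 CPM in WT, every DKO library above every WT library. It rose by 0.48 on the log2 scale (SE 0.14, adjusted p of 0.0349 by edgeR), and the call ended without DKO replicate 2 or 3 or WT replicate 2 or 5, at 0.36 to 0.46. The next 5 by p lay within 4930512J16Rik and Mgll, at the promoters of Mrpl53 and Ccdc142os, and within Tet3 and Skap2, at 0.32 to 0.60, and did not pass (edgeR adjusted p of 0.0892 to 0.125).

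Over all short regions the WT libraries were split. The median level of the 4293 regions under 10 kb was 7.69, 7.25, 7.64 and 8.26 CPM per kb in DKO replicates 1 to 4, and 6.90, 8.78, 8.51, 9.35 and 9.004 CPM per kb in WT replicates 1 to 5. The DKO libraries thus lay below WT replicates 2 to 5 and above WT replicate 1. Their share of each library's counts was 5.22, 4.97, 5.31 and 5.66% in DKO, and 4.53, 5.72, 5.58, 6.07 and 5.91% in WT, with WT replicate 3 inside the DKO range and WT replicate 1 below it. For the 30 long regions the share was 1.34, 1.25, 1.27 and 1.36% in DKO, and 1.42, 1.54, 1.53, 1.51 and 1.48% in WT, with no overlap. Without HoxA it was 0.857, 0.819, 0.818 and 0.873% in DKO, and 0.870, 0.951, 0.956, 0.942 and 0.911% in WT, where WT replicate 1 fell within the DKO range.

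**Figure D4:**
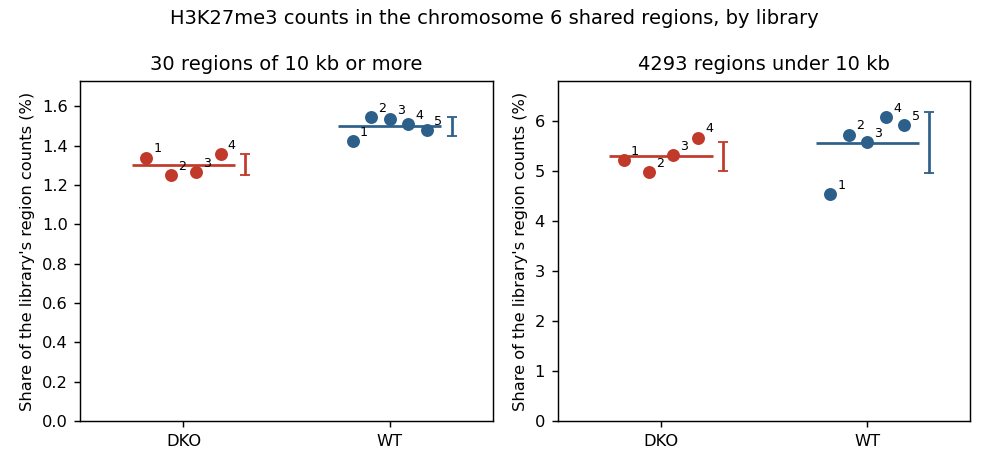
Share of each H3K27me3 library's region counts (vertical axis, %) in the 30 regions of 10 kb or more (left) and the 4293 shorter regions (right), by genotype. Points are libraries with their replicate number, horizontal lines the group means and bars the SD (n = 4 DKO, n = 5 WT). DKO libraries lie below all WT libraries at left; at right WT replicate 1 lies below every DKO library.

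Other shared regions give the setting. Of the regions of 10 kb or more, 14 of 30 fell here with a median log2 fold change of -0.23, and on the autosomes other than chromosome 6 188 of 451 fell and 12 rose, with a median of -0.18. On chromosome 6 below 50 Mb 5 of 14 fell (median -0.19), and above 100 Mb 6 of 34 (median -0.19). For regions under 10 kb the median was -0.14 here, -0.11 below 50 Mb and -0.18 above 100 Mb, and 0.02 on the other autosomes, where 397 rose and 198 fell of 16430 tested. These sets share all libraries, and the differences between them were not tested. The regions that the authors listed for one genotype alone in the same stretch numbered 2358 for DKO and 3143 for WT, and differ between genotypes by their selection.

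Along the stretch the median log2 fold change of 5 Mb intervals was below 0 in all 10, from -0.20 between 75 and 80 Mb to -0.08 between 85 and 90 Mb. That last interval also holds the most protein-coding genes, 83. The number of regions per Mb was lowest, at 32.0 and 32.8, in the 2 intervals from 60 to 70 Mb.

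**Figure D5:**
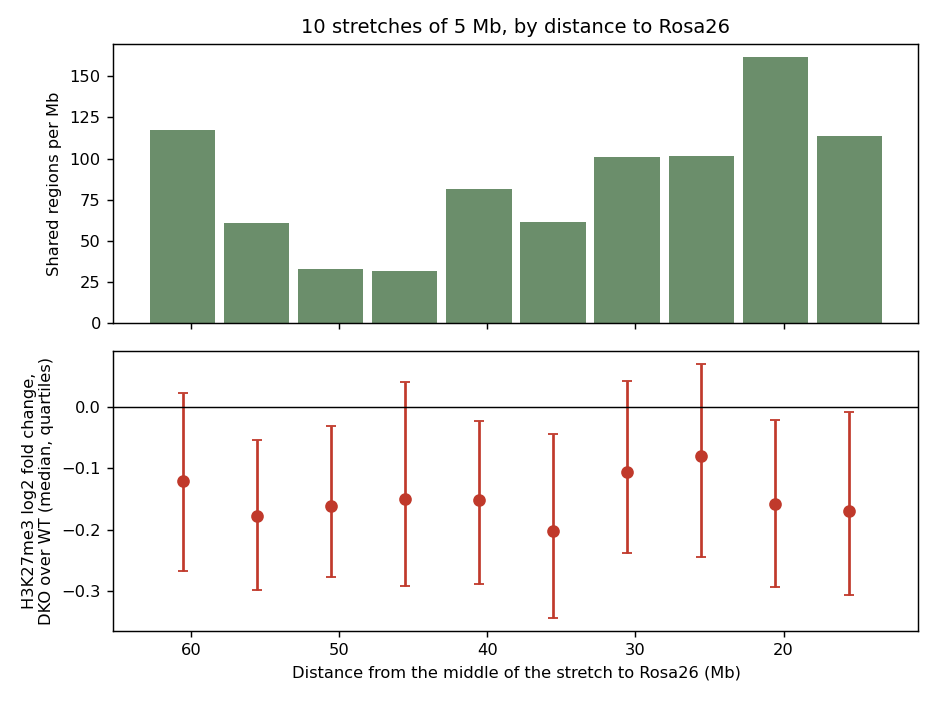
The 10 intervals of 5 Mb by the distance of their middle to Rosa26 (horizontal axis, Mb, nearest at right). Above, shared regions per Mb (bars); below, the median H3K27me3 log2 fold change, DKO over WT, with bars for the quartiles over regions. Medians lie between -0.20 and -0.08 with no steady trend toward Rosa26.

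Housekeeping genes, immunoglobulin genes and vomeronasal receptors gave few regions, where 625 of all 1590 promoter rows in the stretch touched one. Of 20 housekeeping genes 3 had one (Dctn1, Copg1 and Vamp8), at 7.78 to 8.77 CPM per kb and with log2 fold changes of 0.31, 0.01 and -0.63, none past the threshold. Of 242 immunoglobulin kappa and vomeronasal receptor genes with a promoter row in the stretch, 14 shared 10 regions, with a median level of 7.66 CPM per kb and a median log2 fold change of -0.22, and 0 passed. Over all regions tested 1.87% were lower and 2.14% higher, so 0 calls among 3 or 10 regions say little. The highest of the 10 by counts, at Vmn1r51, Igkc, Vmn1r50, Igkj1 and Vmn1r54, stood at -0.33, 0.06, -0.09, -0.16 and -0.16. The region of Nap1l5, an imprinted gene, stood at -0.11.

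No difference in total H3 between the genotypes was called in these regions. By edgeR 0 of 2005 regions tested passed, against a background of 0.0211%, and DESeq2 called 0. An unadjusted p under 0.05 was found in 95 of the 2005, and in 1168 of 18938 over all regions tested, a higher share. The median H3 log2 fold change was -0.02. Median H3 levels per library were 11.6 and 11.8 CPM per kb in DKO, and 11.7 and 11.9 CPM per kb in WT. The difference between the H3K27me3 and H3 comparisons passed in 0 of 4310 regions by edgeR, against a background of 0.00184%, with a median of -0.14. An unadjusted p under 0.05 was found in 207 of the 4310, and in 3659 of 54290 over all regions tested, again a higher share. With 2 H3 libraries per genotype, that 0 regions passed here does not show that there was no difference.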

How the data were processed

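H3K27me3 and total H3 ChIP-seq libraries of DKO and WT ESCs were compared. The authors deposited raw read counts per region (57909 regions, 13 libraries) and, for H3K27me3, per promoter row, none of them normalized. Per the file headers featureCounts 2.0.3 made the promoter counts, unstranded, and left out reads that overlap several rows. The submitters' processing notes name featureCounts, Subread, bedtools, MACS2, Bowtie2 and mm10 with no roles; the sources used here do not say how regions were called, nor what b6 and q30 in the column names mean. Low-count regions were dropped (filterByExpr, minimum count 10 and minimum total 15), libraries scaled by TMM, and all regions tested with edgeR 4.0.16 (R 4.3.3), two-sided quasi-likelihood F test, Benjamini-Hochberg adjustment. The SE is the log2 fold change over the root of F. H3K27me3 against H3 was 1 fit of all 13 libraries. DESeq2 1.42.0 was an alternative. Scripts were tested on simulated data. Summaries used Python 3.11.15 with pandas 2.3.3, numpy 2.4.6 and matplotlib 3.10.9. Gene names and sequences are from RefSeq GRCm38.p6; of 1104 protein-coding chromosome 6 symbols matched, 73.0% had a promoter row start within 100 bp of the RefSeq start. Named regions are the 8 of highest level among those of at least 1 kb, the 5 longest, up to 6 of smallest adjusted p each way, those on HoxA rows, and for each gene group the 5 of highest level and any that passed; other named regions were picked after their values were seen. The regions and gene groups were chosen with earlier results of these data known.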

Additional observations from a re-analysis of the deposited data

Results flagged for a closer look

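WT replicate 1 was far from the other WT libraries in its share of counts in the 4323 regions. The DKO libraries held 6.22 to 7.02%, WT replicate 1 held 5.954% and the other WT libraries 7.11 to 7.58%. It was likewise low in the 491 regions at promoters, where the DKO libraries held 2.30 to 2.50%, WT replicate 1 held 2.406% and the other WT libraries 2.63 to 2.71%. These were 2 of 120 groups of 4 or 5 library values examined, and chance alone marks about 1 in 20. The cause was not tested.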

How the results depend on the processing

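Of the regions tested for H3K27me3, DKO over WT, 30 were lower and 1 higher. DESeq2 gave 18 lower and 0 higher, library totals 15 and 3, the WT libraries with rmce in their column name 16 and 0, libraries with Old or New 11 and 0, those with neither 3 and 0, and a term for these label sets 50 lower. TMM off chromosomes 6 and 11 gave 0 higher. Leaving out both WT replicate 1 and DKO replicate 1, chosen after seeing the data, gave 94 lower and 2 higher. TMM from chromosome 6 shared regions, also chosen after seeing the data, gave 0 lower and 3 higher with a median log2 fold change of 0.0047. Leaving out 1 library gave 11 to 140 lower, 0 to 1 higher and medians of -0.21 to -0.11.

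The replicate numbers do not pair the H3K27me3 samples (same-number r from -0.0278 to 0.0714 over 4 pairs). The words Old and New cross these numbers. DKO replicate 3 and WT replicate 4 carry Old (r of 0.00613), and DKO replicate 4 and WT replicate 5 carry New (r of 0.0906). The replicate block below joins libraries by number and not by these words. For H3, with 2 libraries per genotype, the 2 same-number pairs give 1 value by construction (r of -0.0104), so pairing could not be checked there. With the replicate block 16 fell, 15 of them of 10 kb or more and 1 shorter, and 0 rose. The block left 13 regions lower than H3 in DKO and 8 in WT, with a WT median of -0.0076.

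For H3K27me3 over H3, library totals gave 44 higher, 359 lower and a median of -0.56 in DKO, and 53 higher, 467 lower and a median of -0.50 in WT. Leaving out 1 library gave 66 to 113 higher and 2 to 9 lower in DKO, and 101 to 146 higher and 1 to 6 lower in WT. The H3 median, DKO over WT, was -0.055 to 0.027. Promoter rows lower were 1 with no filter and 0 to 8 with 1 library left out.

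Over 55 named regions and 1155 alternatives, 822 kept the direction and the side of the threshold, 289 lost the call, 13 gained one and 31 changed sign, all of the last at regions that had not passed. 5430434F05Rik turned to -0.028 with TMM off chromosomes 6 and 11, -0.045 in libraries with neither word, -0.0029 with no filter, -0.018 with the block, and -0.014 to 0.034 with 1 library left out. Copg1 turned to -0.025 with TMM off chromosomes 6 and 11, -0.13 without both replicates 1, -0.059 with clone 13, -0.018 with Old or New, and -0.064 to 0.12 with 1 library left out. Igkc turned to -0.082 without both replicates 1, -0.22 with Old or New, and -0.078 to 0.24 with 1 left out. Vmn1r50 turned to 0.058 with chromosome 6 TMM, 0.053 with rmce, and -0.22 to 0.057 with 1 left out. Igkj1 turned to 0.010 with clone 13, and -0.36 to 0.010 with 1 left out. With chromosome 6 TMM Lrrtm1 turned to 0.0030, Chn2 to 0.032 and Nap1l5 to 0.035. In libraries with neither word Vmn1r51 turned to 0.16 and Vmn1r54 to 0.089. The cause was not tested.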
